A study of Mus musculus with 12 samples.

Results

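The genes described here were the histone genes, taken as every gene symbol of the Hist1 to Hist4 clusters and every symbol that begins with H1f, H2af or H3f3. The rule matched 84 of the 24346 symbols in each file. Of these, 68 carry a Hist1 to Hist4 symbol and are called cluster genes, and 16 carry another symbol and are called variant genes below. The split is by symbol and not by position, as H2afj lies close to Hist4h4 on chromosome 6. Of these 84, 44 reached an FPKM (a count of fragments scaled to transcript length and to the library's mapped fragments) of at least 1 in 2 or more of the 12 libraries and are described, namely 34 of the 68 cluster genes and 10 of the 16 variant genes. Among the 40 that did not, 14 were listed at 0 in all 12 libraries and 26 were above 0 somewhere. All libraries came from wild-type female C57BL/6J mice with orthotopic liver tumors of Hepa 1-6, a mouse hepatoma line, and from tumor-infiltrating myeloid-derived suppressor cells (MDSCs) isolated by cell sorting. The methods of the study give 6 to 8 weeks as the age at which mice were selected. Monocytic cells (M-MDSCs) are defined as CD11b+ Ly-6Chi Ly-6G- and polymorphonuclear cells (PMN-MDSCs) as CD11b+ Ly-6Cint Ly-6G+. For each subset there were 2 libraries from mice given vehicle, 2 from mice given MS-275 and 2 from mice given CXD101, both inhibitors of class I histone deacetylases. According to the methods of the study, which describe the M-MDSC experiment, each inhibitor was given at 5 mg/kg by daily intraperitoneal injection for 10 days, starting 10 days after implantation of the tumor cells, and sorting took place on day 21. Only mice whose proportion of MDSCs in blood passed a set limit 10 days after implantation went on to treatment. The study calls the M-MDSC libraries biological replicates without saying whether each came from a separate mouse, and for PMN-MDSCs the sources used here do not say what the replicates were. The p-values below therefore measure the spread between these libraries, which may in part be technical.

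Histone octamers of H2A, H2B, H3 and H4 wrap DNA into nucleosomes, and linker histones of the H1 class bind the DNA that enters and leaves them. Most genes of the clusters are transcribed in S phase, and their mRNAs end in a conserved stem-loop bound by SLBP in place of a poly(A) tail. Variant genes such as H3f3a, H2afz and H1f0 are expressed through the cell cycle or in non-dividing cells and give polyadenylated mRNAs. Histone deacetylases remove acetyl groups from the tails of these proteins, and H1f0 has long been known as a gene whose expression rises in cells treated with deacetylase inhibitors. The libraries were made from poly(A)-selected RNA, so an mRNA that ends at the stem-loop is captured poorly, and the values of cluster genes are for the part of their mRNA that carried a poly(A) tail.

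The stem-loop is shown first because an mRNA that ends at it is captured poorly in a poly(A) library. The transcripts of GENCODE M21 (build GRCm38) were searched after the stop codon for a stem-loop pattern of 16 bases. It was found in 26 of the 34 described cluster genes and in 1 of the 10 described variant genes, H2afx. There were 8 distinct sequences among them, and the 13 genes of the commonest included Hist1h1c and Hist3h2a. In 18 of the cluster genes at least 1 annotated transcript ran over 100 bases past the loop. Whether the deposited FPKM counted those stretches is not given in the sources used here. That run was 840 bases in the longest transcript of Hist1h1c, 1643 in Hist3h2a, 330 in Hist1h4i and 822 in H2afx. The annotated transcripts of Hist1h2bc held no stem-loop. Others without one were annotated with short transcripts that may end before it, such as Hist1h4k (312 bases), Hist1h2bn and Hist2h2bb (381 each) and Hist1h2ai (393). In the sequences, read from 5′ to 3′ on the strand of the gene, capitals mark the stem and lower case the loop.
Hist1h1c, Hist3h2a and 11 others: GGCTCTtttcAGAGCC
Hist1h4d, Hist1h4c, Hist1h4h and Hist4h4: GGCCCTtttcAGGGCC
Hist1h4i and Hist2h4: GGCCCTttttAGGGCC
H2afx: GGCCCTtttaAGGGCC

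A canonical poly(A) signal lay in the last 40 bases of an annotated coding transcript in 11 of the 34 described cluster genes. Their mean FPKM over the 12 libraries ran from 0.448 to 88.9 with a median of 1.79, against 0.523 to 33.8 with a median of 0.874 in the 23 without it, so the ranges overlapped. A signal could be found only in annotated bases, so this split depends in part on how far the annotation runs. Some of the 23 have short transcripts, such as Hist1h4k with 312 bases. The search also found no signal in the variant genes H2afy and H3f3b, with means of 251 and 427 FPKM. Near-identical copies limit these values further. Of the 44 described genes, 6 shared no stretch of 101 bases, the read length, with another annotated transcript, and 16 shared over 25% of their stretches. These shares are for GENCODE M21 transcripts, and the gene models behind the deposited FPKM are not given in the sources used here. For some genes those models appear shorter. In Hist1h2ac (2482 annotated bases) 1 read was worth 0.388 FPKM, and in Hist1h2bk (476 bases) 0.373. A long annotated tail lowers the share, so shares of such genes can be too low. For Hist1h1c the share was 5%, for H1f0 3.22% (with an overlapping annotated transcript on the other strand), for Hist1h4i 15.0%, for Hist1h2bc 25.3% and for Hist3h2a 29.8%, the last with the overlapping gene Trim17. For H2afz it was 25.6% and for H3f3a 20.7%, mostly with other loci annotated under Gm symbols. How the authors' pipeline assigned reads that fit several copies is not given in the sources used here, and values of genes with large shares are uncertain for that reason.

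The promoters of 3 genes that rose together in PMN-MDSCs are given next, as RefSeq windows of 300 bases (build GRCm38.p6) around the start that RefSeq annotates. These are H1f0 on the plus strand of chr15:79027962-79028261, Hist1h1c (named H1f2 in RefSeq) on the plus strand of chr13:23738557-23738856 and Hist3h2a (named H2aw) on the plus strand of chr11:58954435-58954734. For H1f0 that window ends upstream of the start in GENCODE M21, given with its values below. Capitals mark each match, on either strand, to the CCAAT box (CCAAT), the TATA box (TATAAA), the GC box (GGGCGG), the H1 box (AAACACA) or the octamer (ATTTGCAT).
H1f0: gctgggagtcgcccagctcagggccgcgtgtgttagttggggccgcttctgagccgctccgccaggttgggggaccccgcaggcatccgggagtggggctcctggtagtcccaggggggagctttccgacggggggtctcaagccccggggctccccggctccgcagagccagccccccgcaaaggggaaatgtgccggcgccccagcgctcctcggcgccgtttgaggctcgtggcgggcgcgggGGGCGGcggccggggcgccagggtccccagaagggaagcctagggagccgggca
Hist1h1c: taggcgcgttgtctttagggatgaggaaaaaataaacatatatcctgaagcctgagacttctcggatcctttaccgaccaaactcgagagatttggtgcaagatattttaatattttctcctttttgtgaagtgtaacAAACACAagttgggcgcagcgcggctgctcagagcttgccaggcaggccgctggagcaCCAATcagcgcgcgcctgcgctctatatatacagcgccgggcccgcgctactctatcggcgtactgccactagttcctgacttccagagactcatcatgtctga
Hist3h2a: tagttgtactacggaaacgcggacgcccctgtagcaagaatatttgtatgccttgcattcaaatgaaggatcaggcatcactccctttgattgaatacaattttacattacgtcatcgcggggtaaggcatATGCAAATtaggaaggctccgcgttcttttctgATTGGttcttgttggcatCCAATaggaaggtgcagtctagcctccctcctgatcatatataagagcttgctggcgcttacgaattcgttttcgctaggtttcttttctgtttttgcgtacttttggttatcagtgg

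The H1f0 window held 1 GC box, the Hist1h1c window 1 CCAAT box and 1 H1 box, and the Hist3h2a window 2 CCAAT boxes and 1 octamer. A RefSeq window was matched for 40 of the 44 described genes. Among the 31 cluster genes with a window, 25 held a CCAAT box (80.6%, against 37.4% of all 32851 promoter windows) and 16 a TATA box (51.6% against 13.6%). The octamer stood in 8 of these 31 windows (25.8% against 1.74%), 4 of them of H2A and 4 of H2B genes. The H1 box, at 7.18% of all windows, was found in 4 of the 5 described H1 genes of the clusters, namely Hist1h1b, Hist1h1c, Hist1h1d and Hist1h1e. The GC box was in 7 of 9 variant windows (77.8% against 35.7%). A match describes the letters of a window only.

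Variant genes made up nearly all histone signal in M-MDSCs and less of it in PMN-MDSCs. Of the summed FPKM of the 84 genes, variant genes held 95.6% to 96.3% in the 6 M-MDSC libraries, 91.8% and 92.5% in the PMN-MDSC vehicle libraries, and 82.3% to 84.6% in the 4 PMN-MDSC libraries from inhibitor-treated mice. H3f3a, which encodes the replacement histone H3.3, was the highest member by its mean over the 12 libraries, at 666 FPKM, followed by H3f3b at 427, H2afz at 399 and H2afy at 251. The highest cluster genes were Hist1h1c at 88.9, Hist1h2bc at 33.8 and Hist1h4i at 20.03 FPKM. In all, 11 genes had a mean of at least 20 FPKM, and 28 of the 34 described cluster genes had a mean under 3.

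The summed FPKM of the cluster genes was 80.6 and 87.9 in the vehicle M-MDSC libraries, 81.7 and 89.3 with MS-275, and 81.5 and 76.5 with CXD101, ranges that overlapped. In PMN-MDSCs it was 147 and 153 with vehicle, 360 and 430 with MS-275, and 371 and 447 with CXD101, so that every treated library lay above both vehicle libraries. Linker H1 genes of the clusters supplied most of that difference, with a mean sum of 64.4 ± 9.54 FPKM (SD, n = 2) with vehicle, 209 ± 36.4 with MS-275 and 235 ± 46.5 with CXD101, nearly all of it Hist1h1c. H2B genes went from 47.1 ± 4.47 to 102 ± 8.67 and 92.7 ± 10.02, and H4 genes from 22.7 ± 8.43 to 53.9 ± 4.505 and 52.8 ± 5.90. Cluster H3 genes stayed low, at 2.37 ± 1.42, 5.47 ± 1.246 and 3.32 ± 1.81. The sums carry no test.

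**Figure D1:**
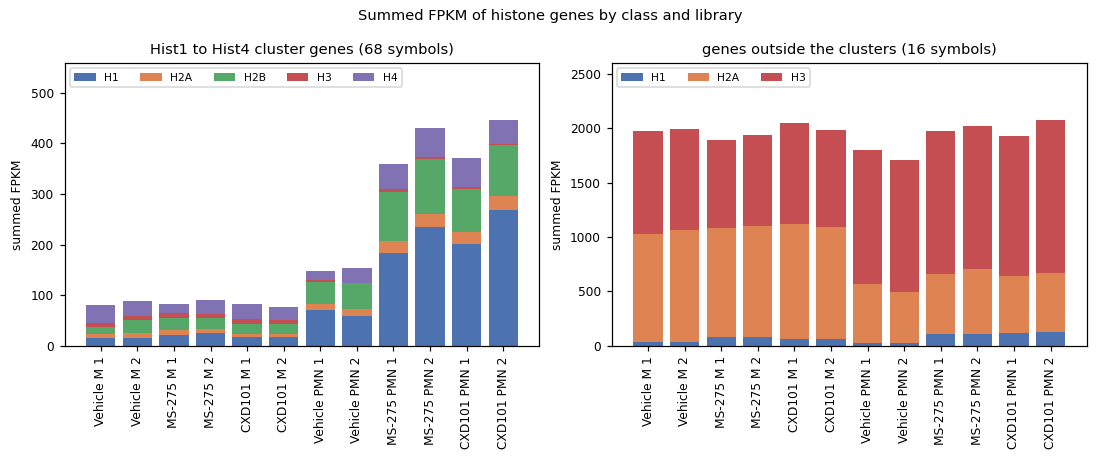
Summed FPKM (y axis) of the histone genes in each of the 12 libraries (x axis), stacked by class, for the 68 cluster genes on the left and the 16 variant genes on the right. The cluster sums lie between 76.5 and 89.3 in the M-MDSC libraries, at 147 and 153 in PMN-MDSCs with vehicle, and from 360 to 447 in PMN-MDSCs with an inhibitor.

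In M-MDSCs, MS-275 was followed by higher H1f0, Hist1h1c, Hist1h2bc, H2afy and H2afy2 and by lower Hist1h4i, while CXD101 was followed by higher H1f0 and H2afy2. A gene was called where limma gave an adjusted p under 0.05 (Benjamini-Hochberg over all genes tested) and a fold change above 1.5 on the log2(FPKM + 1) scale, which understates changes of low genes. With MS-275, 10 of the 35 members tested rose (28.6%, against 10.1% of all 11078 genes tested) and 2 fell (5.71% against 7.32%). With CXD101, 4 rose (11.4% against 5.14%) and 2 fell (5.71% against 3%). Both inhibitors were compared with the same vehicle libraries. The median log2 difference of the members was -0.03 with MS-275 and -0.04 with CXD101, beside -0.06 and -0.02 over all genes. Among the 11 genes with a mean of at least 20 FPKM, 4 rose and 1 fell with MS-275, and 1 rose with CXD101. H1fx reached 1 FPKM with MS-275 only, and Hist1h2bg and Hist3h2ba with the inhibitors only, so these 3 passed the filter on low values through the groups in which they were high. Of the 12 MS-275 calls, 7 held whichever library was left out, and H1fx missed the filter without either MS-275 library. Of the 6 CXD101 calls, 2 held in the same way, those of H1f0 and H2afy2. The CXD101 count was 2 without CXD101 replicate 1, 3 without replicate 2 and 2 with all 12 libraries in 1 model. As the cells were sequenced in bulk, fewer cells of a kind and less RNA per cell cannot be told apart.

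In PMN-MDSCs more members rose and none fell. With MS-275, 15 of the 31 members tested rose (48.4%, against 14.6% of all 11184 genes) and 0 fell (14.2% of all genes fell). Of these 15 calls 9 held whichever library was left out. With CXD101, 12 rose (38.7% against 11.9%) and 0 fell (9.54% of all genes fell), and 9 of the 12 held in the same way. At an unadjusted limma p under 0.05, 21 and 19 members were higher and 0 were lower. The share of all genes at that limit is not given here or below, so such counts have no background beside them. The inhibitors again shared their vehicle libraries. Of the 11 genes with a mean of at least 20 FPKM, 5 rose with MS-275 and 4 with CXD101. The median difference of the members was 0.78 with MS-275 and 0.72 with CXD101 on the log2 scale, beside -0.03 and -0.03 over all genes. Hist1h1b, Hist1h1d, Hist1h2ac and Hist1h2ae reached 1 FPKM, among the 6 PMN-MDSC libraries, in treated ones only and passed the filter through them.

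**Figure D2:**
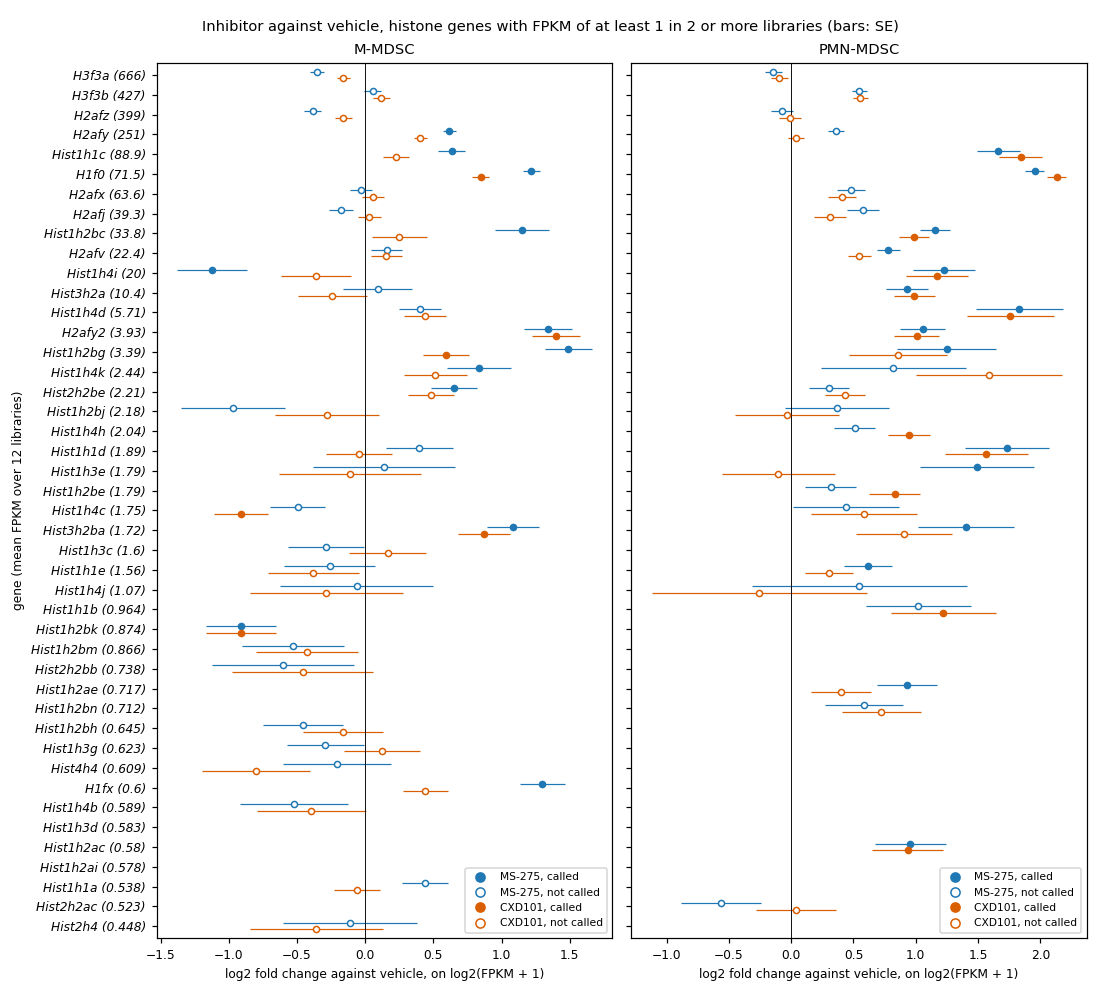
Difference from vehicle (x axis, log2 fold change on log2(FPKM + 1), with its SE as a bar) for the 44 described genes (y axis, ordered by mean FPKM, given in brackets), in M-MDSCs on the left and PMN-MDSCs on the right. Filled points passed the call and open points did not; genes that missed the filter in a subset have no point, and filled points of PMN-MDSCs all lie right of 0.

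H1f0, the linker histone of non-dividing and differentiated cells, was higher with both inhibitors in both subsets. The gene lies on the plus strand of chr15:79028450-79030504 (GRCm38). Its FPKM was 34.4 and 34.2 in the vehicle M-MDSC libraries, 80.9 and 81.3 with MS-275, and 60.4 and 64.5 with CXD101. In PMN-MDSCs it was 26.6 and 26.3 with vehicle, 102 and 109 with MS-275, and 113 and 126 with CXD101. Every treated library lay above every vehicle library of its subset. The log2 difference was 1.22 ± 0.06 (SE, limma adjusted p = 4.49e-06) for MS-275 and 0.85 ± 0.06 (adjusted p = 9.49e-05) for CXD101 in M-MDSCs. In PMN-MDSCs it was 1.96 ± 0.07 (limma adjusted p = 2.58e-06) and 2.13 ± 0.07 (adjusted p = 2.63e-06).

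Hist1h1c, the cluster gene of a linker histone expressed in many tissues, lies on the plus strand of chr13:23738808-23740367. It stood at 11.6 and 11.6 FPKM in vehicle M-MDSCs, 17.8 and 19.4 with MS-275, and 12.6 and 14.9 with CXD101. Its PMN-MDSC values were 69.2 and 55.5 with vehicle, 174 and 227 with MS-275, and 196 and 259 with CXD101. The groups did not overlap in any of these comparisons, but they lay close with CXD101 in M-MDSCs, where the log2 difference was 0.23 ± 0.10 (limma adjusted p = 0.130). With MS-275 in M-MDSCs it was 0.63 ± 0.10 (limma adjusted p = 0.00107), and without MS-275 M-MDSC replicate 2 the value of 0.58 no longer passed the fold limit. In PMN-MDSCs the difference was 1.66 ± 0.17 (limma adjusted p = 0.000164) for MS-275 and 1.84 ± 0.17 (adjusted p = 0.000169) for CXD101.

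The other H1 genes were low. Hist1h1d, a cluster linker histone, had 0.588 and 0.604 FPKM in vehicle PMN-MDSCs (3 and 3 reads, as recovered from the steps of its FPKM), 6.38 and 2.81 with MS-275 (28 and 13 reads) and 2.64 and 5.14 with CXD101 (13 and 23 reads), and it rose by 1.73 ± 0.34 (limma adjusted p = 0.00351) and 1.57 ± 0.34 (adjusted p = 0.00715). Hist1h1e, which overlaps Hist1h2be on the same strand, rose with MS-275 in PMN-MDSCs from 0.969 and 1.20 to 2.48 and 1.92 FPKM, by 0.62 ± 0.19 (limma adjusted p = 0.0293), and lost the call without PMN-MDSC vehicle replicate 1 (0.54) or 2 (0.70) or MS-275 replicate 1 (0.49). Hist1h1b rose with CXD101 in PMN-MDSCs from 0.380 and 0 to 1.97 and 1.52 FPKM, by 1.22 ± 0.42 (limma adjusted p = 0.0473), a call lost without any of the 4 libraries compared (0.99 to 1.45). Its MS-275 values there, 0.442 and 2.93, were not called, though they passed with all 12 libraries in 1 model (1.02). H1fx, a variant linker histone, had 0.111 and 0.115 FPKM in vehicle M-MDSCs (1 and 1 reads), 1.70 and 1.77 with MS-275 (17 and 14 reads) and 0.678 and 0.359 with CXD101 (6 and 3 reads), and rose by 1.30 ± 0.17 (limma adjusted p = 0.000458) with MS-275, though it was not tested without either MS-275 library, as it then missed the filter. Hist1h1a, at 0 to 1.43 FPKM, was described but never called against vehicle.

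**Figure D3:**
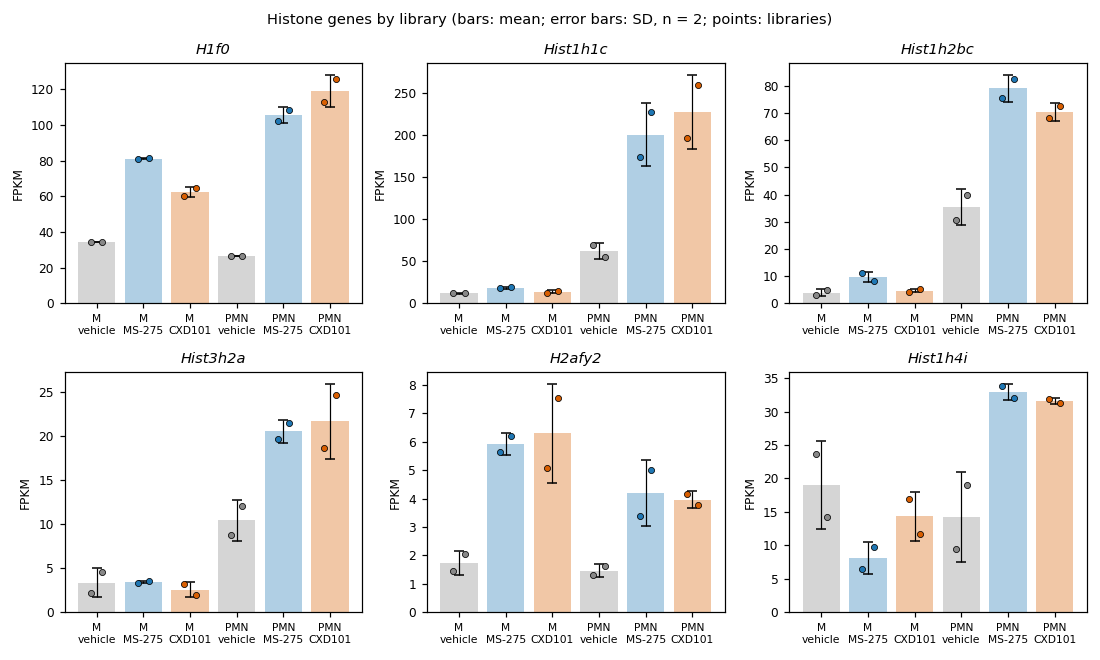
FPKM (y axis, from 0) of 6 histone genes by subset and treatment (x axis); bars are means, error bars the SD (n = 2) and points the libraries. H1f0 runs from 26.3 to 126 and Hist1h1c from 11.6 to 259, and Hist1h4i is lower with MS-275 than with vehicle in M-MDSCs and higher with both inhibitors in PMN-MDSCs.

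Among H2A genes, the macroH2A gene H2afy2 showed the same direction in all 4 comparisons. MacroH2A proteins carry a large globular domain next to the histone fold and are found in silent chromatin. Its FPKM was 1.45 and 2.03 in vehicle M-MDSCs, 5.65 and 6.18 with MS-275, and 5.06 and 7.53 with CXD101, a rise of 1.34 ± 0.18 (limma adjusted p = 0.000534) and 1.40 ± 0.18 (adjusted p = 0.00123). In PMN-MDSCs it was 1.32 and 1.62 with vehicle, 3.37 and 5.01 with MS-275, and 4.17 and 3.76 with CXD101, a rise of 1.06 ± 0.18 (limma adjusted p = 0.00182) and 1.01 ± 0.18 (adjusted p = 0.00304). The groups treated with inhibitor lay above vehicle throughout.

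H2afy, the other macroH2A gene, had 260 and 264 FPKM in vehicle M-MDSCs, 400 and 406 with MS-275, and 350 and 345 with CXD101. It rose by 0.62 ± 0.05 (limma adjusted p = 4.14e-05) with MS-275, and with CXD101 the difference of 0.41 ± 0.05 (adjusted p = 0.00100) stayed under the fold limit. In PMN-MDSCs it had 151 and 147 FPKM with vehicle, 183 and 200 with MS-275, and 155 and 150 with CXD101, and was not called. The CXD101 libraries of PMN-MDSCs overlapped the vehicle range.

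Hist3h2a, a cluster H2A gene of the Hist3 locus at chr11:58954685-58956830 on the plus strand, had 2.18 and 4.54 FPKM in vehicle M-MDSCs, 3.38 and 3.56 with MS-275, and 3.18 and 2.02 with CXD101, which overlapped. In PMN-MDSCs it had 8.82 and 12.1 with vehicle, 19.7 and 21.5 with MS-275, and 18.7 and 24.7 with CXD101, a rise of 0.93 ± 0.17 (limma adjusted p = 0.00254) and 0.99 ± 0.17 (adjusted p = 0.00247). H2afv, which encodes an H2A.Z protein, had 15.3 and 13.4 FPKM in vehicle PMN-MDSCs, 25.4 and 25.2 with MS-275 and 21.9 and 20.8 with CXD101. It rose with MS-275 by 0.78 ± 0.09 (limma adjusted p = 0.000286), and its CXD101 difference of 0.55 ± 0.09 (adjusted p = 0.00220) stayed under the fold limit except under quantile normalization (0.59) and without PMN-MDSC vehicle replicate 1 (0.64). In M-MDSCs H2afv ran from 22.0 to 27.7 FPKM over the 6 libraries and was not called.

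Hist1h2ac and Hist1h2ae rested on few reads. Hist1h2ac had 0.395 and 0 FPKM in vehicle PMN-MDSCs (1 and 0 reads), 0.917 and 1.74 with MS-275 and 0.818 and 1.80 with CXD101, and rose by 0.96 ± 0.29 (limma adjusted p = 0.0238) and 0.93 ± 0.29 (adjusted p = 0.0309), calls lost without PMN-MDSC vehicle replicate 2 (0.72 and 0.69). It missed the filter without MS-275 or CXD101 replicate 2. Hist1h2ae rose with MS-275 in PMN-MDSCs from 0.632 and 0 FPKM (2 and 0 reads) to 1.47 and 1.39 (4 and 4 reads), by 0.93 ± 0.24 (limma adjusted p = 0.0131), lost the call without the same vehicle library (0.57) and missed the filter without either MS-275 library. Hist1h2ai and Hist2h2ac, each with a mean FPKM under 1, were not called in any inhibitor comparison in which they were tested.

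The other H2A variants moved little under the inhibitors. H2afz, the main H2A.Z gene, had 595 and 615 FPKM in vehicle M-MDSCs, 448 and 477 with MS-275, and 562 and 521 with CXD101. All 4 treated values lay below vehicle, and the MS-275 difference was -0.39 ± 0.06 (limma adjusted p = 0.00128), within the fold limit. In PMN-MDSCs it was 291 and 242 with vehicle, 250 and 254 with MS-275, and 257 and 272 with CXD101, which overlapped. H2afx, whose product is phosphorylated at DNA breaks, ran from 75.1 to 88.7 FPKM in M-MDSCs, and was 40.6 and 33.5 in vehicle PMN-MDSCs, 48.4 and 55.5 with MS-275 and 52.0 and 46.7 with CXD101. Its PMN-MDSC differences of 0.48 ± 0.11 (limma adjusted p = 0.00886) and 0.41 ± 0.11 (adjusted p = 0.0214) missed the fold limit, which the first passed without PMN-MDSC vehicle replicate 1 (0.62). H2afj had 34.1 and 37.3 FPKM in vehicle M-MDSCs, 32.4 and 30.5 with MS-275 and 34.1 and 39.0 with CXD101, and in PMN-MDSCs 38.3 and 32.2, 47.9 and 58.1, and 40.5 and 47.4. Its MS-275 difference in PMN-MDSCs, 0.57 ± 0.13 (limma adjusted p = 0.00650), fell just short of the fold limit. It passed under median-of-ratios scaling (0.59), quantile normalization (0.61) and a pseudocount of 0.1 (0.59), and without PMN-MDSC vehicle replicate 1 (0.69) or MS-275 replicate 1 (0.71).

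**Figure D4:**
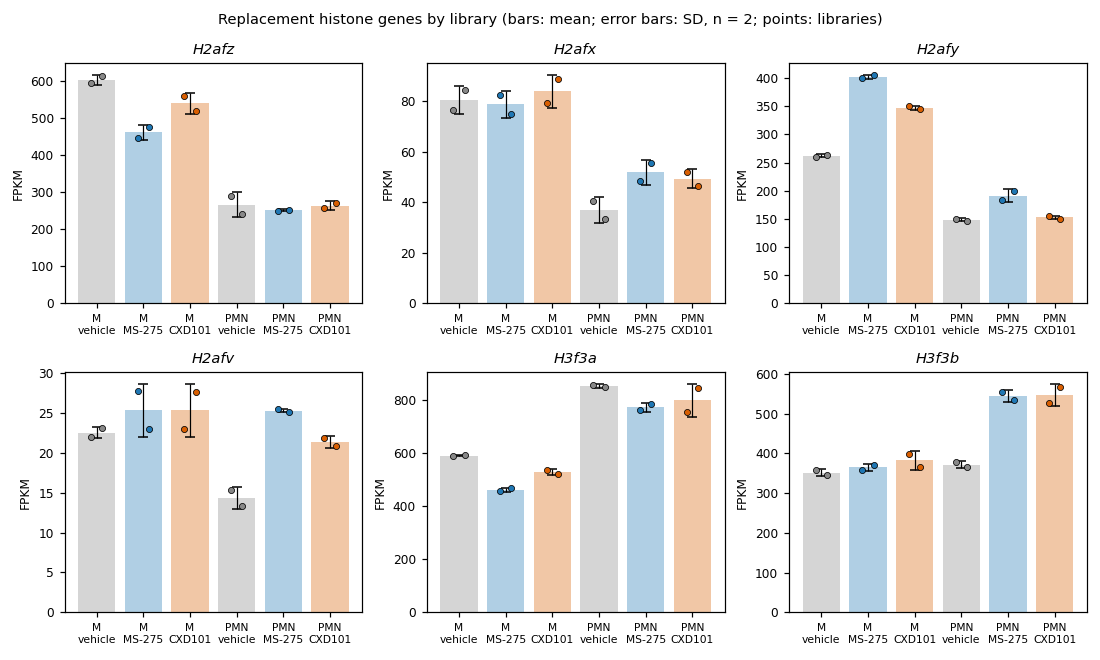
FPKM (y axis, from 0) of 6 variant genes by subset and treatment (x axis); bars are means, error bars the SD (n = 2) and points the libraries. H2afz, H2afx, H2afy and H2afv are lower in PMN-MDSC than in M-MDSC vehicle libraries, and H3f3b lies between 528 and 568 in the treated PMN-MDSC libraries against 346 to 399 in all others.

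Of the H2B genes, Hist1h2bc (chr13:23684199-23692908, plus strand) was the highest. Its FPKM was 2.90 and 4.79 in vehicle M-MDSCs, 11.0 and 8.28 with MS-275, and 4.25 and 5.08 with CXD101. In PMN-MDSCs it was 30.6 and 39.98 with vehicle, 75.6 and 82.7 with MS-275, and 68.1 and 72.7 with CXD101. Treated and vehicle libraries overlapped for CXD101 in M-MDSCs only. The rise was 1.15 ± 0.20 (limma adjusted p = 0.00206) with MS-275 in M-MDSCs, 1.15 ± 0.12 (adjusted p = 0.000176) with MS-275 in PMN-MDSCs and 0.99 ± 0.12 (adjusted p = 0.000552) with CXD101 in PMN-MDSCs.

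Hist1h2bg had 0.727 and 0.379 FPKM in vehicle M-MDSCs (2 and 1 reads), 2.96 and 3.74 with MS-275 (9 and 9 reads) and 1.48 and 1.18 with CXD101 (4 and 3 reads). It rose by 1.49 ± 0.17 (limma adjusted p = 0.000261) with MS-275 and by 0.59 ± 0.17 (adjusted p = 0.0395) with CXD101, a call lost without M-MDSC vehicle replicate 2 (0.43) or CXD101 replicate 1 (0.50) or 2 (0.69). In PMN-MDSCs it went from 1.72 and 3.09 to 4.99 and 9.46 with MS-275, by 1.249 ± 0.40 (limma adjusted p = 0.0298), lost without PMN-MDSC vehicle replicate 1 (0.95) or MS-275 replicate 2 (0.85). Its CXD101 values of 3.12 and 7.83 were not called.

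Hist3h2ba rose in M-MDSCs from 0 and 0.382 FPKM (0 and 1 reads) to 1.33 and 1.68 with MS-275 (4 and 4 reads) and 1.12 and 1.19 with CXD101 (3 and 3 reads), by 1.09 ± 0.19 (limma adjusted p = 0.00221) and 0.87 ± 0.19 (adjusted p = 0.0135), the CXD101 call being lost without M-MDSC vehicle replicate 1 (0.64) or CXD101 replicate 1 (0.90) or 2 (0.85). In PMN-MDSCs it went from 1.30 and 0.444 to 5.03 and 2.86 with MS-275, by 1.41 ± 0.39 (limma adjusted p = 0.0169), lost without PMN-MDSC vehicle replicate 2 (1.07) or MS-275 replicate 1 (1.08), and to 1.35 and 3.95 with CXD101. Hist2h2be, of 0.709 and 1.11 FPKM in vehicle M-MDSCs and 2.18 and 1.80 with MS-275, rose by 0.65 ± 0.17 (limma adjusted p = 0.0144), lost without M-MDSC vehicle replicate 1 (0.50) or MS-275 replicate 1 (0.56). Hist1h2be rose with CXD101 in PMN-MDSCs from 1.95 and 1.73 to 4.02 and 4.08 FPKM, by 0.83 ± 0.20 (limma adjusted p = 0.0130), lost without PMN-MDSC vehicle replicate 2 (0.77) or CXD101 replicate 1 (0.84) or 2 (0.82).

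Hist1h2bk was the H2B gene that fell. It had 2.24 and 2.67 FPKM in vehicle M-MDSCs (7 and 8 reads), 1.45 and 0.365 with MS-275 (5 and 1 reads) and 0.978 and 0.690 with CXD101 (3 and 2 reads), and fell by 0.91 ± 0.26 with each (limma adjusted p = 0.0196 and 0.0355). Both calls were lost when 1 of several libraries was left out, the MS-275 call without M-MDSC vehicle replicate 1 (-1.004) or 2 (-0.82) or MS-275 replicate 2 (-0.49), the CXD101 call without any of the 4 libraries (-1.03 to -0.80). Hist1h2bh, Hist1h2bj, Hist1h2bm, Hist1h2bn and Hist2h2bb, with mean FPKM from 0.645 to 2.18, were not called against vehicle in either subset.

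The H3 signal came almost wholly from H3f3a and H3f3b, which encode the same H3.3 protein. H3f3a had 589 and 590 FPKM in vehicle M-MDSCs, 455 and 467 with MS-275 and 535 and 520 with CXD101, and in PMN-MDSCs 856 and 846, 759 and 783, and 753 and 842. Treated libraries lay below vehicle in both subsets, yet the largest difference, -0.35 ± 0.05 with MS-275 in M-MDSCs (limma adjusted p = 0.000761), was within the fold limit. H3f3b had 358 and 346 FPKM in vehicle M-MDSCs, 359 and 372 with MS-275 and 399 and 366 with CXD101. In PMN-MDSCs it had 378 and 367 with vehicle, 555 and 534 with MS-275 and 528 and 568 with CXD101. Its PMN-MDSC differences of 0.55 ± 0.06 (limma adjusted p = 0.000245) and 0.56 ± 0.06 (adjusted p = 0.000349) stayed just under the fold limit. The second passed it under quantile normalization (0.60) and without CXD101 replicate 1 (0.61).

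Of the 4 described H3 genes of the clusters, Hist1h3e passed the call, with MS-275 in PMN-MDSCs. It went from 1.26 and 0 FPKM (3 and 0 reads) to 4.39 and 2.31 (9 and 5 reads), by 1.49 ± 0.45 (limma adjusted p = 0.0254), lost without PMN-MDSC vehicle replicate 2 (0.90) or MS-275 replicate 1 (1.14), and had 0 and 0.957 with CXD101. Hist1h3c, Hist1h3d and Hist1h3g, with mean FPKM from 0.583 to 1.60, were not called against vehicle.

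Among H4 genes, Hist1h4i (chr13:22040636-22041362, minus strand) changed in opposite directions in the subsets. In M-MDSCs it had 23.7 and 14.3 FPKM with vehicle, 6.43 and 9.75 with MS-275 and 16.9 and 11.8 with CXD101. In PMN-MDSCs it had 9.51 and 19.0 with vehicle, 33.8 and 32.1 with MS-275 and 31.9 and 31.3 with CXD101. It fell by 1.12 ± 0.26 (limma adjusted p = 0.00799) with MS-275 in M-MDSCs, and rose by 1.23 ± 0.25 (adjusted p = 0.00425) and 1.17 ± 0.25 (adjusted p = 0.00679) in PMN-MDSCs. The CXD101 libraries of M-MDSCs overlapped vehicle.

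Hist1h4d, which shares no stretch of 101 bases with another gene, had 4.01 and 4.77 FPKM in vehicle M-MDSCs, 5.18 and 7.20 with MS-275 and 5.84 and 6.79 with CXD101, and was not called there. In PMN-MDSCs it had 0.676 and 2.78 with vehicle, 7.07 and 8.94 with MS-275 and 9.11 and 6.17 with CXD101, rising by 1.83 ± 0.35 (limma adjusted p = 0.00332) and 1.76 ± 0.35 (adjusted p = 0.00520). Hist1h4h rose with CXD101 in PMN-MDSCs from 1.93 and 2.48 (4 and 5 reads) to 6.01 and 4.40 (12 and 8 reads), by 0.95 ± 0.17 (limma adjusted p = 0.00300), and had 3.37 and 3.72 with MS-275.

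Hist1h4k rose with MS-275 in M-MDSCs from 1.38 and 0.479 FPKM to 2.08 and 2.63, by 0.83 ± 0.23 (limma adjusted p = 0.0191), lost without M-MDSC vehicle replicate 2 (0.49) or MS-275 replicate 2 (0.72). In PMN-MDSCs it had 3.26 and 0 with vehicle, 1.89 and 3.59 with MS-275 and 6.20 and 4.34 with CXD101, and was not called. The CXD101 difference there passed with all 12 libraries in 1 model (1.59). Hist1h4c fell with CXD101 in M-MDSCs from 4.40 and 2.86 FPKM (8 and 5 reads) to 1.12 and 1.78 (2 and 3 reads), by 0.91 ± 0.20 (limma adjusted p = 0.0142), lost without M-MDSC vehicle replicate 1 (-0.67) or CXD101 replicate 1 (-0.72). Hist1h4b, Hist1h4j, Hist2h4 and Hist4h4, with mean FPKM from 0.448 to 1.07, were not called against vehicle.

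The methods give the same dose and schedule for MS-275 and CXD101, whose groups were compared directly, as 1 pair in each subset. In M-MDSCs, 3 of 35 members were higher with MS-275 (3.22% of all genes were) and 0 were lower (1.17% of all genes were), with 4 lower at an unadjusted limma p under 0.05. The higher ones were Hist1h2bc (0.90, 95% interval 0.44 to 1.36, limma adjusted p = 0.0231), H1fx (0.86, 0.48 to 1.24, adjusted p = 0.0144) and Hist1h2bg (0.90, 0.51 to 1.29, adjusted p = 0.0137). Each lost the call when 1 library was left out, Hist1h2bc without MS-275 replicate 1 (0.72) or CXD101 replicate 1 (0.79) or 2 (1.01), H1fx without CXD101 replicate 2 (0.71) and, under the filter, without either MS-275 library, and Hist1h2bg without MS-275 replicate 2 (0.77) or CXD101 replicate 2 (0.80). H1f0 differed by 0.37 (0.23 to 0.51, limma adjusted p = 0.00757), under the fold limit, with both MS-275 libraries above both CXD101 libraries, as did Hist1h1c by 0.41 (0.19 to 0.63, adjusted p = 0.0287). In PMN-MDSCs limma called 0 of 31 members in either direction (0.465% of all genes were higher and 0.340% lower with MS-275), and 3 were higher and 3 lower at an unadjusted p under 0.05. The smallest adjusted p there was that of H2afy (0.32, interval 0.17 to 0.48, limma adjusted p = 0.0686). The intervals there ran from -0.35 to just under 0 for H1f0, from -0.58 to 0.22 for Hist1h1c and from -0.11 to 0.45 for Hist1h2bc, so that the data allow differences of those sizes.

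Without inhibitor, cluster genes made up the members higher in PMN-MDSCs, and H2A variants were among those lower, while the share of members higher lay near that of all genes. In a model of all 12 libraries, 7 of 44 members were higher in vehicle PMN-MDSCs than in vehicle M-MDSCs (15.9%, against 17.2% of all 11662 genes) and 11 were lower (25% against 16.8%). Among the higher ones, Hist1h2bc was higher by 2.92 ± 0.19 (limma adjusted p = 3.49e-07), Hist1h1c by 2.32 ± 0.16 (adjusted p = 4.87e-07) and Hist3h2a by 1.43 ± 0.25 (adjusted p = 0.000525), and Hist1h2be, Hist1h2bg, Hist1h4h and Hist2h2be followed at 0.78 to 1.23. Variant genes of the H2A class were lower, H2afz by 1.19 ± 0.08 (limma adjusted p = 4.95e-07), H2afx by 1.11 ± 0.11 (adjusted p = 7.44e-06), H2afy by 0.81 ± 0.05 (adjusted p = 3.77e-07) and H2afv by 0.62 ± 0.11 (adjusted p = 0.000506). The other 7 lower genes were cluster genes, Hist1h2bj, Hist1h2bk, Hist1h3c, Hist1h3g, Hist1h4c, Hist1h4d and Hist4h4, at -0.98 to -1.84. H3f3a was higher by 0.53 ± 0.06 (limma adjusted p = 1.63e-05), under the fold limit, which it passed under quantile normalization (0.62). Calls were lost without 1 library for H2afv (-0.53 without PMN-MDSC vehicle replicate 2), Hist1h2bg (0.95 without M-MDSC vehicle replicate 2, 0.82 without PMN-MDSC vehicle replicate 2), Hist1h4d (-0.99 without M-MDSC vehicle replicate 2, -0.51 without PMN-MDSC vehicle replicate 1) and Hist1h2be (0.64 without M-MDSC vehicle replicate 1). They were also lost for Hist1h2bj (-1.18 without PMN-MDSC vehicle replicate 2), Hist1h3c (-0.98 without M-MDSC vehicle replicate 1, -0.77 without PMN-MDSC vehicle replicate 2) and Hist4h4 (-0.49 without M-MDSC vehicle replicate 2, -1.06 without either PMN-MDSC vehicle library). Hist1h3g missed the filter without M-MDSC vehicle replicate 1 or M-MDSC CXD101 replicate 2. The other 10 kept the call whichever library was left out. Hist1h4h, called higher, reached 1 FPKM in PMN-MDSC libraries only and Hist1h3g, called lower, in M-MDSC libraries only, so each passed the filter through the subset in which it was high. Hist1h4k, at 0.14 and not called, went to -0.91 without PMN-MDSC vehicle replicate 1 and to 1.18 without replicate 2; these libraries had 3.26 and 0 FPKM.

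The responses to the inhibitors differed between the subsets in several members. For MS-275, the response in PMN-MDSCs exceeded that in M-MDSCs in 6 of 44 members (8.65% of all genes did) and was below it in 1 (9.48% of all genes were). For CXD101 it was higher in 5 (7.31% of all genes) and lower in 0 (6.59% of all genes), with 1 lower at an unadjusted limma p under 0.05. H1f0 rose more in PMN-MDSCs, by 0.74 ± 0.09 (limma adjusted p = 0.000288) with MS-275 and 1.29 ± 0.09 (adjusted p = 2.39e-05) with CXD101. Hist1h1c did so by 1.03 ± 0.22 (limma adjusted p = 0.00616) and 1.62 ± 0.22 (adjusted p = 0.000723), and Hist1h4i by 2.35 ± 0.43 (adjusted p = 0.00246) and 1.53 ± 0.43 (adjusted p = 0.0257). Also higher in PMN-MDSCs were the MS-275 responses of H2afj (0.75 ± 0.17, limma adjusted p = 0.00741), H2afv (0.62 ± 0.15, adjusted p = 0.0114) and Hist1h4d (1.43 ± 0.45, adjusted p = 0.0341) and the CXD101 responses of Hist1h1d (1.61 ± 0.47, adjusted p = 0.0312) and Hist3h2a (1.23 ± 0.36, adjusted p = 0.0290). H1fx was the member with a lower MS-275 response in PMN-MDSCs (-1.11 ± 0.36, limma adjusted p = 0.0397).

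Whichever library was left out, these calls held for H1f0 and Hist1h1c with both inhibitors and for H2afj and Hist1h4i with MS-275. They were lost for H2afv without M-MDSC MS-275 replicate 2 (0.49) or PMN-MDSC vehicle replicate 2 (0.53), and when FPKM was rescaled without S100a8 and S100a9 (0.51). For Hist1h4d they were lost without M-MDSC vehicle replicate 1 (1.53) or 2 (1.32), M-MDSC MS-275 replicate 1 (1.22), PMN-MDSC vehicle replicate 1 (0.84) or PMN-MDSC MS-275 replicate 2 (1.28). The H1fx call was lost without any 1 of the 8 libraries of its contrast (-1.19 to -1.03). With CXD101, Hist1h4i lost the call without M-MDSC vehicle replicate 1 (1.19), M-MDSC CXD101 replicate 2 (1.29), PMN-MDSC vehicle replicate 1 (1.07) or PMN-MDSC CXD101 replicate 1 (1.52) or 2 (1.55). Hist3h2a lost it without M-MDSC vehicle replicate 2 (0.83), M-MDSC CXD101 replicate 2 (0.997), PMN-MDSC vehicle replicate 1 (1.02) or PMN-MDSC CXD101 replicate 2 (1.04). Hist1h1d lost it without either vehicle library of M-MDSCs (1.55 and 1.68) or of PMN-MDSCs (1.60 and 1.62) or replicate 2 of CXD101 in M-MDSCs (1.22) or PMN-MDSCs (1.23). For Hist1h2bc, the MS-275 responses differed by 0.00 ± 0.27 (limma adjusted p = 0.993). The split of all called genes in the MS-275 difference depended on scaling, with 1009 higher and 1106 lower as deposited and 727 and 1470 when FPKM was rescaled without S100a8 and S100a9, which moved the median of all genes from 0.02 to -0.09.

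The genes that make, process and load histones were described from 3 fixed lists. Of 23 S phase and cell cycle genes, all 23 were tested, and 21 were lower in vehicle PMN-MDSCs than in vehicle M-MDSCs (91.3%, against 16.8% of all genes), with a median of -1.46 beside -0.01 over all genes. They included the proliferation marker Mki67 (-1.38 ± 0.08, limma adjusted p = 1.29e-07) and the topoisomerase gene Top2a (-1.43 ± 0.11, adjusted p = 8.76e-07). With MS-275, 3 fell in M-MDSCs (Birc5, Ccna2 and Ccnb1, 13.0% against 7.32% of all genes) and 2 in PMN-MDSCs (Ccnb1 and Tk1, 8.70% against 14.2%). In PMN-MDSCs 1, Cdk2, rose (4.35% against 14.6%). At an unadjusted limma p under 0.05 with MS-275, 2 were higher and 12 lower in M-MDSCs, and 4 were higher and 10 lower in PMN-MDSCs. With CXD101, limma called 0 in M-MDSCs (7 higher and 3 lower at an unadjusted p under 0.05). In PMN-MDSCs it called Cdk2 alone, which rose (4.35% against 11.9% of all genes), with 1 higher and 11 lower at that unadjusted limit. The medians were 0.03 and -0.26.

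Of 21 symbols for histone mRNA processing and transcription, 20 were tested, as Ars2 had no values under that symbol. In vehicle PMN-MDSCs 5 were lower (25%, against 16.8% of all genes) and 2 higher (10% against 17.2%). Slbp, which encodes the stem-loop binding protein, was lower in vehicle PMN-MDSCs by 0.81 ± 0.06 (limma adjusted p = 8.65e-07), as were Npat, the activator of histone gene transcription (-0.68 ± 0.13, adjusted p = 0.000890), Cstf2, Eri1 and Ncbp1. Lsm10, of the U7 particle that directs cleavage after the stem-loop, was higher there by 0.79 ± 0.10 (limma adjusted p = 3.79e-05), as was Zfp473. The inhibitors changed 1 of 20 with MS-275 in each subset, Hinfp in M-MDSCs and Cstf2 in PMN-MDSCs, both lower. Each was 5% of those tested, against 7.32% and 14.2% of all genes that fell. At an unadjusted limma p under 0.05 with MS-275, 0 were higher and 8 lower in M-MDSCs, and 1 was higher and 6 lower in PMN-MDSCs. With CXD101 limma called 0 in either subset, and 1 was higher and 2 lower in M-MDSCs and 1 higher and 5 lower in PMN-MDSCs at an unadjusted p under 0.05.

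Of 26 symbols of histone chaperone and assembly genes, 25 were tested, as Supt16h had no values under that symbol. In vehicle PMN-MDSCs 15 were lower (60%, against 16.8% of all genes) and 1, Cabin1, was higher (4% against 17.2%). Under the inhibitors 5 fell with MS-275 in PMN-MDSCs (Hat1, Nasp, Npm1, Npm3 and Set) and 4 of those with CXD101 (Hat1, Npm1, Npm3 and Set). These were 20% and 16% of the list, against 14.2% and 9.54% of all genes that fell. None rose, and at an unadjusted limma p under 0.05, 3 and 1 were higher and 13 and 14 were lower. Npm1, the nucleophosmin gene, fell by 1.20 ± 0.06 (limma adjusted p = 6.62e-06) and 0.95 ± 0.06 (adjusted p = 2.80e-05), and Npm3, its relative, fell by 1.75 ± 0.09 (adjusted p = 7.51e-06) and 1.02 ± 0.09 (adjusted p = 0.000136). In M-MDSCs, Cenpa, the centromeric H3 variant, fell with MS-275 by 0.82 ± 0.06 (limma adjusted p = 3.03e-05). It was the 1 call there (4% of those tested, against 7.32% of all genes that fell), with 2 higher and 12 lower at an unadjusted limma p under 0.05. With CXD101 limma called 0 of the list in M-MDSCs (2 higher and 1 lower at an unadjusted p under 0.05). The medians of this list in PMN-MDSCs were -0.22 and -0.24.

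Markers of cell types moved alongside. The summed FPKM of 11 of 12 neutrophil markers (Ly6g was not analysed here) was 72396 to 98444 in vehicle PMN-MDSCs and 256393 to 296944 in the treated ones, with S100a8 and S100a9 at 10.2% to 13.7% and 27.3% to 30.9% of all FPKM. Mmp9 of that list went the other way in PMN-MDSCs, from 978 and 1144 to 668 to 724. In M-MDSCs the sum of the list was 11708 to 12366 with vehicle and 22262 to 26277 with the inhibitors, nearly all of it S100a8 and S100a9. The granule gene Ngp went from 470 and 544 to 331 and 372 with MS-275 and to 714 and 795 with CXD101. Ltf, also of granules, was at 73.3 and 102 with vehicle in M-MDSCs, 29.1 and 31.8 with MS-275 and 82.1 and 92.2 with CXD101. Camp and Mmp9 were likewise below vehicle with MS-275, and with CXD101 Mmp9 was below it and Camp, at 80.8 and 86.8 against 51.8 and 82.8, overlapped it. The 6 progenitor markers, among them Mpo and Elane of granule-forming precursors, summed to 704 to 743 in vehicle M-MDSCs, 3169 to 3390 with MS-275 and 2356 to 2464 with CXD101, and in PMN-MDSCs to 81.8 to 150, 246 to 280 and 219 to 264. In PMN-MDSCs Mpo overlapped vehicle, at 55.3 and 25.9 with vehicle, 38.9 and 46.5 with MS-275 and 68.3 and 50.2 with CXD101. The 5 eosinophil markers summed to 10.2 to 15.0, 144 to 163 and 112 to 123 in M-MDSCs and to 48.2 to 66.2 in PMN-MDSCs. The 6 macrophage markers summed to 147 to 148 with vehicle, 70.2 to 77.1 with MS-275 and 118 to 134 with CXD101 in M-MDSCs, and to 174 to 186 with vehicle and 83.3 to 99.1 with the inhibitors in PMN-MDSCs. In M-MDSCs Adgre1 of that list rose, from 38.9 and 41.5 to 58.4 and 53.9 with MS-275 and 42.3 and 47.6 with CXD101. Of the sort markers, Ly6c2 stood at 1306 and 1360 FPKM in vehicle M-MDSCs and at 455 and 511 in vehicle PMN-MDSCs. The 7 monocytic markers summed to 1881 to 1946 in vehicle and 2553 to 2943 in treated M-MDSCs, and to 1643 to 1660 and 2533 to 2811 in PMN-MDSCs. Ly6c2 supplied that rise, at 2041 to 2447 in treated M-MDSCs and 1418 to 1677 in treated PMN-MDSCs. Csf1r, the receptor gene of monocytes and macrophages, was lower with the inhibitors, from 123 and 123 to 94.9 to 104 in M-MDSCs and from 145 and 160 to 59.9 to 72.4 in PMN-MDSCs. Ccr2 was also below vehicle in every treated library, barely so in M-MDSCs (147.1 and 136.9 against 124.1 to 136.8). In PMN-MDSCs it went from 40.7 and 35.7 to 27.5 to 29.96. No test of Ccr2 is given here, and the paper reported no significant change of its mRNA by qRT-PCR in M-MDSCs grown in vitro. Cd14 went from 23.9 and 28.2 to 8.36 to 11.8 in M-MDSCs and from 109 and 122 to 126 to 171 in PMN-MDSCs. Of 12 liver and tumor markers, Apob, Ttr, Fgb, Ahsg, Serpina1a and Serpina1b were listed at 0 in all libraries, and Trf alone held 38.8 to 270 of their summed 42.6 to 274. The 12 lymphocyte and NK cell markers summed to 5.94 to 13.9, with Ncr1 at 0. The part of these shifts in the histone results was not tested.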

How the data were processed

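RNA was sequenced from 12 libraries, 2 for each of 3 treatments in 2 subsets of MDSCs. Per the labels and the methods of the study, libraries were stranded and poly(A)-selected, with single-end reads of 101 bases. The authors deposited FPKM per gene symbol for each library. The submitters' processing notes name TopHat2 2.1.1, Bowtie2 2.2.8, SAMtools 0.1.18, Cuffdiff 2.2.1 and mm10, without parameters. Depth, estimated from the steps that whole reads leave in low FPKM values, was 9110000 to 11570000 reads in M-MDSC and 7590000 to 8830000 in PMN-MDSC libraries. An FPKM of 1 corresponded to a median of 2.43 reads over the 45 histone genes with such steps.

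A gene entered a model if 2 of its libraries had an FPKM of at least 1. The test was limma 3.58.1 (R 4.3.3) on log2(FPKM + 1) with eBayes trended on intensity, and Benjamini-Hochberg adjustment ran over all genes tested. Each subset had a model of its 6 libraries. A model of all 12 gave the contrast between subsets and the difference of responses. All described genes are named. Values by library and tests are given for those with a mean of at least 20 FPKM or a call against vehicle or between responses. For some of these, values are given as a range or only for the groups of the call. The members and gene lists were chosen with earlier results of these data known. Scripts were tested on simulated data.

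Replicate libraries correlated at Pearson r of 0.9945 to 0.9961 over genes. Nothing in the labels says that a replicate number pairs libraries, so the main models held no pairing. Differences between replicates correlated between groups at r of -0.126 to 0.179. A correlation over all genes cannot exclude pairing that affects few genes or has small effects. Stem-loops, poly(A) signals and shared windows were found by searching the transcripts of GENCODE M21, and promoters came from RefSeq. Alternatives varied the pseudocount, the filter, the scaling, the trend, the fold limit, the libraries in the model and a replicate block.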

Additional observations from a re-analysis of the deposited data

Results flagged for a closer look

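These results came up because the response to an inhibitor differed between the subsets in a test of the difference itself (PMN-MDSC response minus M-MDSC response, log2 scale, limma with Benjamini-Hochberg adjustment over all genes). With MS-275 the difference was 0.74 for H1f0, 0.75 for H2afj, 0.62 for H2afv, 1.03 for Hist1h1c, 1.43 for Hist1h4d, 2.35 for Hist1h4i and -1.11 for H1fx. With CXD101 it was 1.29 for H1f0, 1.62 for Hist1h1c, 1.61 for Hist1h1d, 1.53 for Hist1h4i and 1.23 for Hist3h2a. Hist1h4i with MS-275 combined a fall in M-MDSCs (-1.12) with a rise in PMN-MDSCs (1.23), while H1f0 rose in both subsets. H1fx rested on at most 17 reads a library.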

How the results depend on the processing

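Members called are given as the sum of both directions. Without a filter the count was 3 for CXD101 in M-MDSCs (6 in the report) and 2 for the CXD101 difference of responses (5). With an FPKM of at least 5, which left fewer genes tested, it was 6 and 2 for MS-275 and CXD101 in M-MDSCs, 1 between inhibitors there, 9 and 7 in PMN-MDSCs and 10 between subsets. With a fold limit of 2 it was 7, 1 and 0 in M-MDSCs, 7 for CXD101 in PMN-MDSCs and 4 for the MS-275 difference of responses. With all 12 libraries in 1 model it was 2 for CXD101 and 1 between inhibitors in M-MDSCs; the cause was not tested. The treated to vehicle ratio of the summed FPKM in M-MDSCs went from 1.01 to 0.907 for cluster genes under quantile normalization with MS-275. For variant genes it went from 0.966 to 1.045 under quantile normalization and 1.02 after rescaling without S100a8 and S100a9 with MS-275, and from 1.02 to 1.04 under quantile normalization with CXD101. Leaving out each library gave 9 to 13, 2 to 6 and 0 to 3 calls in M-MDSCs (MS-275, CXD101, between them), 11 to 17, 9 to 15 and 0 in PMN-MDSCs, 15 to 19 between subsets, and 5 to 9 and 2 to 7 for the differences of responses. The CXD101 count in M-MDSCs was 2 without CXD101 replicate 1 and 3 without replicate 2, and the count between inhibitors there was 1 without MS-275 replicate 2 and 0 without CXD101 replicate 2. The CXD101 difference of responses gave 3 without M-MDSC vehicle replicate 2, PMN-MDSC vehicle replicate 1 or PMN-MDSC CXD101 replicate 2, and 2 without M-MDSC CXD101 replicate 2. The ratios of summed FPKM ranged from 0.969 to 1.06 and 0.899 to 0.980 in M-MDSCs and from 2.40 to 2.87 and 2.48 to 2.98 in PMN-MDSCs for cluster genes, and from 0.955 to 0.978, 0.998 to 1.03, 1.11 to 1.17 and 1.10 to 1.19 for variant genes (leave-one-out alternative added after seeing the data). Hist1h4k between the subsets turned from 0.14 to -0.91 without PMN-MDSC vehicle replicate 1 and to 1.18 without replicate 2. With a replicate block the counts were 13, 6 and 3 in M-MDSCs, 15, 12 and 0 in PMN-MDSCs, 19 between subsets and 7 and 7 for the differences of responses. Of the values of single members, 77 lost and 18 gained a call under alternatives other than leaving out a library. At a median of 2.43 reads for an FPKM of 1, the values of low cluster genes rest on few reads.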
